A study of Mus musculus with 73 samples.

Results

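The respiratory chain genes described here are the rows of the count table whose symbols start with Nduf, Uqcr, Sdh followed by a to d, Cox followed by a number or Atp5, and the mitochondrial genes mt-Nd, mt-Co, mt-Cytb and mt-Atp. The prefixes matched 138 rows. After 19 rows named or annotated as pseudogenes were left out, 119 members remained of 55291 gene rows: 106 nuclear genes and the 13 protein-coding genes of the mitochondrial genome. The study asked what the transcription factor Casz1 does for the fate of inner hair cells, the sensory cells of the cochlea that signal sound to the auditory nerve. Its samples are 73 single cells, picked by hand under a microscope from mouse cochleae at postnatal day 14 and labelled as Casz1-null inner hair cells. All carried the alleles Atoh1Cre/+, Casz1flox/flox, the Cre reporter Rosa26-CAG-Loxp-stop-Loxp-3xGFP(Ai47), the Flp reporter Rosa26-CAG-Frt-stop-Frt-tdTomato and Fgf8-Flpo/+. Cre from the hair cell gene Atoh1 removes the floxed part of Casz1 and switches on GFP, Flp from the inner hair cell gene Fgf8 switches on tdTomato, and cells positive for GFP and tdTomato were taken. They form 1 group, no animal is named, and wild-type cells were not analysed here. The 73 cells therefore count as 1 sample: no test and no p-value is given, nothing is said of what the deletion changed, and correlations over cells describe libraries that share a source and differ in depth.

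The respiratory chain sits in the inner mitochondrial membrane. Complexes I and II feed electrons from NADH and succinate to ubiquinone, complex III passes them on to cytochrome c, complex IV hands them to oxygen, and complex V, the ATP synthase, uses the proton gradient built by complexes I, III and IV to make ATP. Complex II is encoded by nuclear genes alone. The other complexes are mosaics of nuclear subunits, made on cytosolic ribosomes and imported, and of subunits encoded and translated inside the mitochondrion, so both genomes must supply parts. Hair cells depend on this ATP for ion pumping and synaptic release.

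Total counts ran from 11027945 to 37183702 per cell, with 6954 to 10688 genes counted. Levels are CPM, counts scaled to the same total over all gene rows, unless another scale is named. Detection means 10 CPM or more, or 110 counts at the lowest depth and 372 at the highest. All 8 general hair cell markers and all 8 inner hair cell markers were detected in at least 37 cells, and so were 7 of 8 outer hair cell markers (summed level 647 to 25979 CPM, median 5573). Markers of supporting cells, glia, neurons, mesenchyme, immune cells, blood, endothelium and stria numbered 61. Of these, 52 were detected in fewer than 10 cells, and 24 cells had such a rare marker at 50 CPM or more. In the highest cell, markers summed to 6347 CPM for immune cells, 1519 for neurons and 1204 for supporting cells. The medians were 0.192, 477 and 7.09 CPM, and 3 of 8 neuron markers were detected in at least 37 cells. Casz1 itself ranged from 0 to 283 CPM with a median of 42.1 and was detected in 55 cells. A count per gene cannot show which part of Casz1 the reads came from, so it does not check the deletion.

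Nuclear and mitochondrial genes of the chain each took a few percent of all counts, and the mitochondrial sum varied more between cells. The 13 mitochondrial genes summed to 10108 CPM in the lowest cell, 38351 in the median cell and 70796 in the highest, a 7.0-fold range with a coefficient of variation of 27.4%. The 106 nuclear genes summed to 23376, 31160 and 41403 CPM at the same points, a 1.77-fold range with a coefficient of variation of 11.2%. This is a difference of the sums, the nuclear one over many weakly correlated genes. For single genes, the median SD of log2(CPM + 1) was 0.53 for the mitochondrial members. The medians for the nuclear subunits of each of complexes I to V ranged from 0.44 to 1.38. In the median cell the mitochondrial sum was 1.27 times the nuclear sum, with a range of 0.317 to 2.38, and it was the larger of the sums in 58 cells. Per transcript length the order turned round, with median shares of 6.03% of TPM for the mitochondrial and 7.82% for the nuclear genes (TPM is counts per transcript length scaled to a common total). The mitochondrial sum includes genes whose counts are uncertain because nuclear copies share their sequence, as described below. Neither order is therefore read as one of transcript levels. The lowest mitochondrial sum belonged to 1 cell, numbered 17, which was the lowest for 11 of the 13 mitochondrial genes and had 17463587 counts, 31908 CPM of nuclear members and no rare marker of another cell type.

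**Figure D1:**
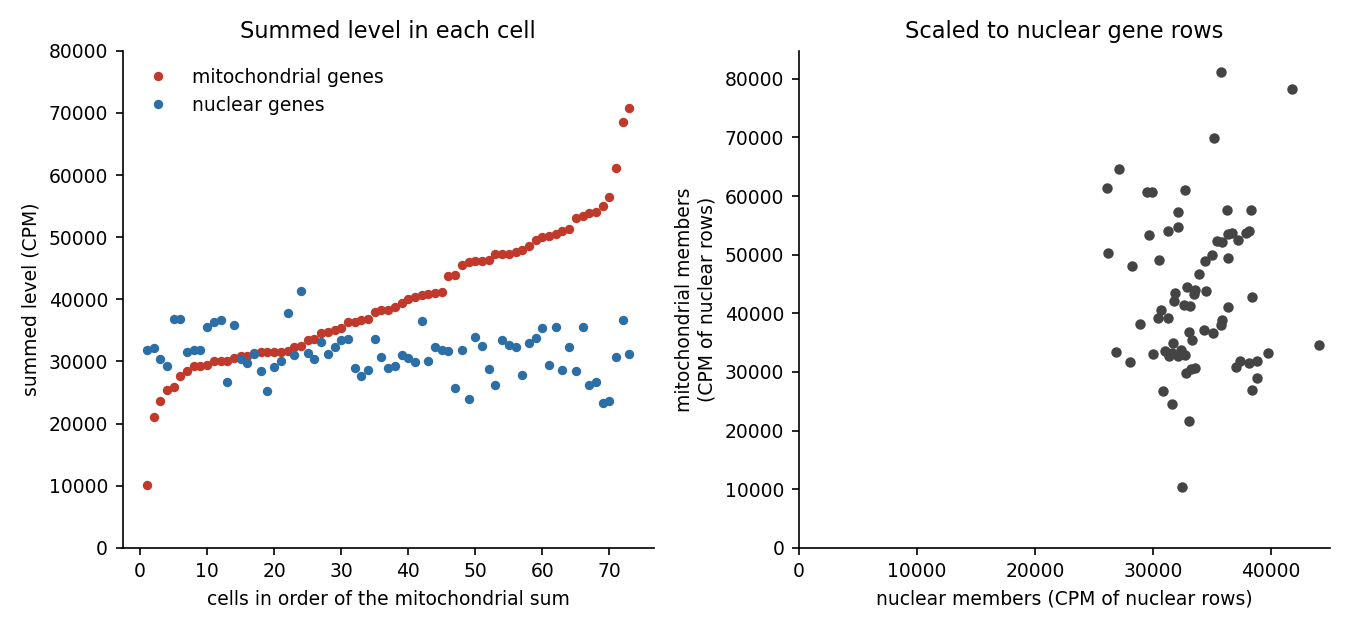
Left, summed level of the 13 mitochondrial (red) and 106 nuclear (blue) respiratory chain genes in each of 73 cells, in CPM, with cells ordered by the mitochondrial sum; the red points span 10108 to 70796 CPM and the blue points 23376 to 41403 CPM. Right, the same sums as CPM of nuclear gene rows, 1 point per cell, with no common trend (rho -0.0089).

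The ratio of mitochondrial to nuclear counts differed by complex. Most mitochondrial genes of complexes IV and V share their sequence with nuclear copies, so their counts are uncertain. In complex I this applies to mt-Nd3 and mt-Nd4l, and in part to mt-Nd4. For complex I the mitochondrial genes summed to a median of 18702 CPM and the nuclear genes to 9427 CPM, a median ratio of 1.99. For complex III, mt-Cytb alone had 3.72 times the sum of the nuclear members. For complex IV the sums were 8624 CPM for the mitochondrial and 7693 CPM for the nuclear genes, a median ratio of 1.08 with the mitochondrial sum higher in 43 cells. Complex V went the other way: mt-Atp6 and mt-Atp8 together had a median of 83.1 CPM against 9518 CPM for its 17 nuclear genes, and the ratio in the highest cell was 0.100. As a mean level per transcript length in TPM, the mitochondrial genes had 9.53 times the nuclear level in complex I, 14.7 times in complex III and 4.44 times in complex IV, and 0.0981 times in complex V.

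The 13 mitochondrial genes fell into a high and a low set, and the low set was, with 1 exception, made of genes with a nearly complete copy in the nuclear genome. Mammalian nuclear genomes carry copies of mitochondrial DNA, and a read that matches both places equally cannot be assigned to either by sequence. In the GENCODE vM21 annotation of mm10, 7 rows on the minus strand of chromosome 1, between bases 24611535 and 24616197, copy a run of mitochondrial genes from mt-Co1 to mt-Nd4. To show how close the copies are, 60 bases of 3 mitochondrial genes are printed with the copy of each, 5′ to 3′ on the gene's strand, with differing bases in capitals. The mt-Co2 and mt-Nd3 stretches start at the first base of the gene, at chrM:7013-7072 and chrM:9459-9518, and that of mt-Co1 lies at chrM:6381-6440. The copies lie at chr1:24615506-24615565 (Gm28661), chr1:24613060-24613119 (Gm28438) and chr1:24616138-24616197 (Gm29216).
mt-Co2: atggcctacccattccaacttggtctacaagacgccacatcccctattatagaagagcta
Gm28661: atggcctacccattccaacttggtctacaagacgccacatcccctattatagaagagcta
mt-Nd3: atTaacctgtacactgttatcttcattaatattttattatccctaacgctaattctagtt
Gm28438: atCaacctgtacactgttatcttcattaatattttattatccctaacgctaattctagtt
mt-Co1: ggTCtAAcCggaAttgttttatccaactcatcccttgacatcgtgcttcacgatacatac
Gm29216: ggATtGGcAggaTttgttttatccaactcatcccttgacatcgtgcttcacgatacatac

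Over its 681 aligned bases the mt-Co2 copy had 0 mismatches, and the copies of mt-Atp6, mt-Co3, mt-Nd4l and mt-Nd4 had 0 as well. The mt-Nd3 copy had 1, T3C, with positions counted from the gene's first base and the mitochondrial base given first. The mt-Co1 copy had 6 over 492 bases, all at its edge, from T1056A to A1066T. A gene was then scored by the share of its 50-base windows, on either strand, that another annotated gene also holds.

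Between 98.0% and 100% of windows were shared for 5 genes, and these 5 were low. mt-Co2, a copper-bearing core subunit of complex IV, had 19.1 CPM in the lowest cell, 89.1 in the median cell and 988 in the highest. mt-Co3, another core subunit of complex IV, had 21.9, 99.5 and 1130 CPM, and mt-Atp6, the proton channel subunit of complex V, had 28, 79.8 and 1047 CPM. For the complex I membrane subunits mt-Nd3 and mt-Nd4l the values were lower still, at 5.80, 35.4 and 153 CPM and at 0.461, 1.78 and 12.6 CPM. The 5 genes made up a median of 0.867% of the mitochondrial sum.

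Genes with few shared windows were high, with 1 exception. mt-Cytb, the cytochrome b of complex III, shared 0% of windows and had 3291, 10584 and 21243 CPM in the lowest, median and highest cell. mt-Nd1, a membrane subunit of complex I, also shared 0% and had 2103, 7748 and 14664 CPM. mt-Nd2, mt-Nd5 and mt-Nd6 shared between 0% and 8.19% and had medians of 2924, 3351 and 1045 CPM. These genes and the exception together gave 67.6% of the mitochondrial sum in the median cell. mt-Co1, the catalytic subunit of complex IV, and mt-Nd4 shared 51.1% and 62.2% of windows, had medians of 8325 and 3875 CPM, and gave most of the remainder (31.5%). The exception, mt-Atp8, shared 0% of windows with an annotated row and had a median of 4.99 CPM. It is 204 bases long and shares 43 of them with mt-Atp6. It also lies between mt-Co2 and mt-Atp6, which are 230 bases apart, and the copies of these neighbours on chromosome 1 are 233 bases apart with no annotated row between them. The sequence between the copies was not read here.

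The 7 copy rows had counts of their own. Their sum was 122 CPM in the lowest cell, 799 in the median cell and 2990 in the highest. The 5 mitochondrial genes that share nearly all windows had a median of 329 CPM. The sets differ, since the 7 rows include the copies of mt-Co1 and mt-Nd4, with medians of 117 and 12.7 CPM. Copies of mt-Co2, mt-Atp6 and mt-Co3 had higher medians than the gene, and those of mt-Nd3 and mt-Nd4l lower ones. Gm28437, the copy of mt-Co3, had the largest median (328 CPM) and Gm10222, the copy of mt-Nd4l, the smallest (1.38 CPM). Over cells the copies' sum followed the mitochondrial sum with a rank correlation (rho) of 0.79. The sources used here do not say how reads matching several places were counted, and its part in these levels was not tested. Levels of mt-Co2, mt-Atp6, mt-Co3, mt-Nd3, mt-Nd4l and mt-Atp8 are therefore counts of these rows and not transcript levels comparable with other genes. The same holds for the mitochondrial sum and ratio of the whole chain, for those of complex V and, through mt-Co2 and mt-Co3, of complex IV. Those of complex I are uncertain too, since they include mt-Nd3, mt-Nd4l and mt-Nd4, which shares 62.2% of its windows.

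**Figure D2:**
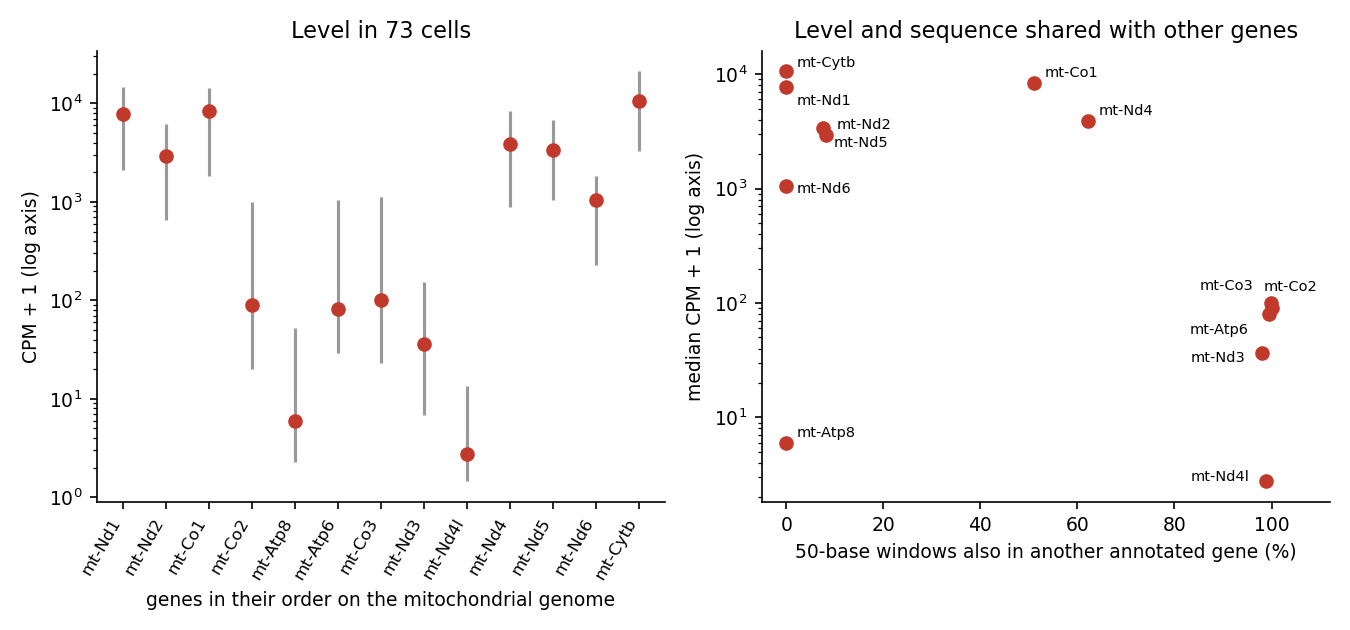
Left, level of each mitochondrial gene in its order on the mitochondrial genome (CPM + 1, log axis), with the median of 73 cells as a point and the lowest and highest cell as a line. Right, the median against the percentage of 50-base windows that another annotated gene also holds; the 5 genes at 98.0% or more lie at 99.5 CPM or lower, and mt-Atp8 at 4.99 CPM is the low gene at 0%.

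The remaining mitochondrial rows showed the same uneven picture. The ribosomal RNA genes mt-Rnr1 and mt-Rnr2 had medians of 3611 and 20617 CPM. Of the transfer RNA rows, mt-Tp was detected in 65 cells (median 24.3 CPM), and no other transfer RNA row was detected in any cell.

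Nearly every structural subunit encoded in the nucleus was present in nearly every cell. At 10 CPM, 11 of 13 mitochondrial members and 89 of 106 nuclear members were detected in at least 37 cells, against 17.8% of all genes with a count. All 73 cells had 10 mitochondrial and 61 nuclear members, against 2.27% of genes. The 17 nuclear members that missed 37 cells were 9 assembly factors and 8 tissue isoforms of complex IV, and the other 76 nuclear subunits all passed. Among members of a complex, levels are compared below per length, in TPM, from the shortest well-supported principal transcript of each gene. For 9 nuclear members the longest principal transcript is more than 1.5 times as long, so their level per length depends on that choice: Ndufb2, Ndufab1, Uqcrq, Cox17, Atp5d, Atp5g1, Atp5g2, Atp5mpl and Atp5md.

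**Figure D3:**
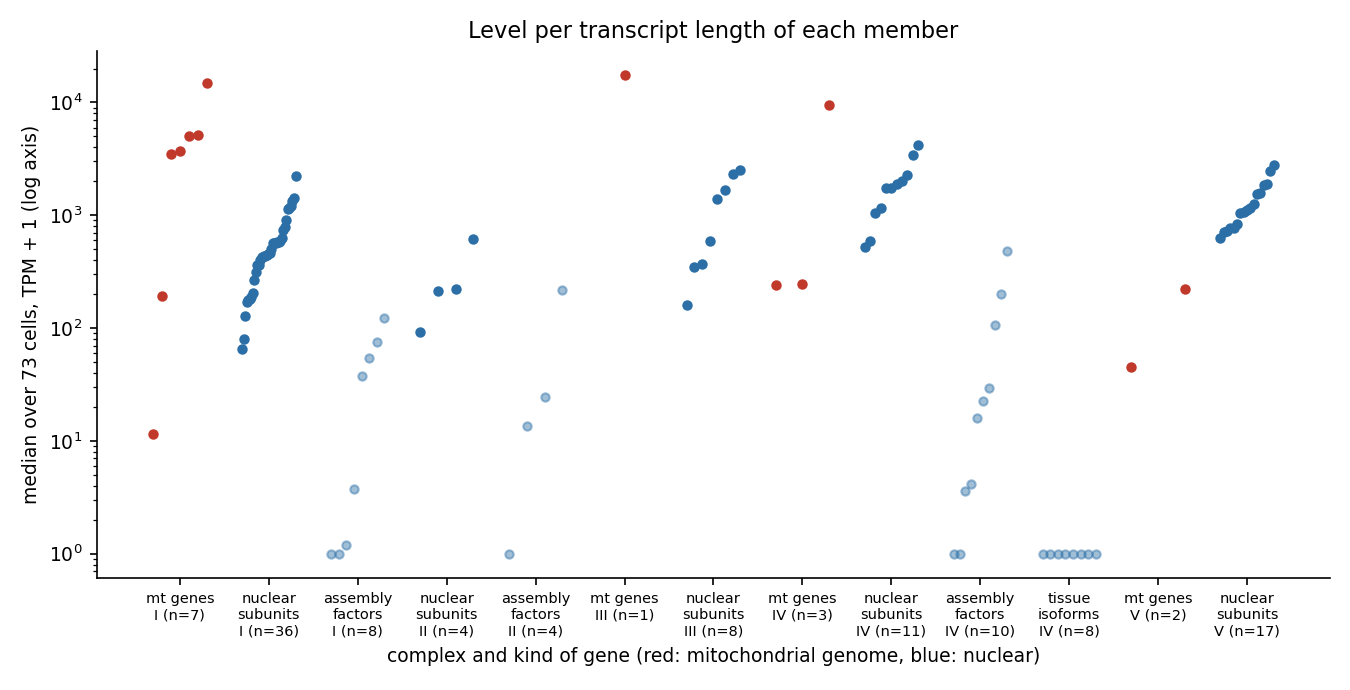
Median level over 73 cells of each of the 119 members, as TPM + 1 on a log axis, by complex and kind of gene (red, mitochondrial; dark blue, nuclear subunits; light blue, assembly factors and tissue isoforms), sorted within each column. The 8 tissue isoforms of complex IV lie at a TPM of 0, and the highest nuclear member is Cox8a at 4193 TPM.

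Complex I takes electrons from NADH and is the largest of the complexes, with 44 nuclear members here. The 7 nuclear core subunits, which carry the flavin and the iron-sulfur clusters, had medians between 79.4 and 564 TPM. Lowest of these was Ndufs1, an iron-sulfur subunit, with 0 CPM in its lowest cell, 120 in the median cell and 461 in the highest. Ndufv2, an iron-sulfur subunit beside the NADH site, was the highest at 77.8, 532 and 926 CPM. The 29 accessory subunits, which surround and stabilise the core, spanned 64.1 to 2234 TPM. Ndufa1, a small membrane subunit, led them with 207, 514 and 1006 CPM. Ndufb2, of the membrane arm, was the lowest with 3.27, 15.7 and 177 CPM, a range of counts that did not overlap that of Ndufa1. Other annotated genes hold 315 of the 5709 windows over all Ndufb2 transcripts, and the transcript used for its TPM has 455 bases. The part of shared sequence in its low count was not tested, so its level is uncertain. A row named Ndufb1-ps, left out by its name and annotated as a noncoding RNA with a bidirectional promoter, had a median of 274 CPM and was detected in all 73 cells.

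Assembly factors of complex I were sparse. Of 8, Ndufaf3, Ndufaf4, Ndufaf7 and Ndufaf8 were detected in at least 37 cells, with medians between 50.1 and 69.9 CPM. Ndufaf1, Ndufaf2, Ndufaf5 and Ndufaf6 were detected in 24 to 30 cells, with medians of 0 to 0.941 CPM and highest cells of 103 to 187 CPM. A median near 0 with such high cells is the pattern of a gene counted in some cells only, and at these depths in libraries from 1 cell a gene without a count may still have been expressed.

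Complex II, succinate dehydrogenase, also belongs to the citric acid cycle. Its flavoprotein Sdha ranged from 0.462 CPM over 335 to 1233 CPM, and its iron-sulfur subunit Sdhb from 77.5 over 379 to 783 CPM. The membrane anchors Sdhc and Sdhd had medians of 163 and 147 CPM. Per length, Sdhb was the highest with a median of 612 TPM, and Sdhc the lowest with 90.9 TPM. The sum of the 8 complex II members varied most among the nuclear sums, 5.82-fold with a coefficient of variation of 30.0%. Complex I, a sum of 44 members, had 1.73-fold and 11.9%, and complex III, also of 8 members, 2.81-fold and 16.9%. Complex II also had the lowest sum, with a median of 1218 CPM. Its assembly factors ran from Sdhaf4 (84.6 CPM, detected in 70 cells) to Sdhaf3 (median 0, 25 cells).

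In complex III the small subunits stood above the large ones per length. Uqcr11 and Uqcrq, small subunits of the membrane part, had medians of 2531 and 2306 TPM (660 TPM for Uqcrq with its longest transcript), and Uqcrh, which helps cytochrome c to dock, 1690 TPM. The large matrix subunits Uqcrc1 and Uqcrc2 had 344 and 161 TPM. Uqcrfs1, the Rieske iron-sulfur protein that hands on electrons, had 370 TPM, with 0.295 CPM in the lowest cell, 277 in the median cell and 817 in the highest. Its partner Cyc1, the cytochrome c1 outside the prefixes, had 18.3, 229 and 616 CPM.

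Complex IV, cytochrome c oxidase, held the pair of nuclear members with the highest level per length, Cox8a and Cox6a1, also with the longest transcripts. Cox8a, a small subunit, had a median of 4193 TPM and 657, 1249 and 2372 CPM in the lowest, median and highest cell. Cox6a1, which sits at the dimer interface, had 3454 TPM, and Cox4i1, which binds ATP, 2285 TPM. The lowest of the 11 nuclear subunits were Cox7b at 523 TPM and Cox5a at 589 TPM, and all 11 were detected in all 73 cells. As a group they varied least between cells: the median of their SDs of log2(CPM + 1) was 0.44, against 0.48 in complex V, 0.63 in complex I, 0.73 in complex III, 1.38 in complex II and 2.54 over all 8619 genes compared. The typical median level of the subunits also differed, at 526 CPM in complex IV, 480 in complex V, 325 in complex III and 249 in complex II. In complex I it was 253 CPM for the 29 accessory and 161 CPM for the 7 core subunits. Complex I was thus below complex III in level and also in spread. The part of level in the spread was not tested.

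The ubiquitous isoforms of complex IV took nearly all counts of each isoform pair. Cox7a1, the heart and muscle form of subunit VIIa, was detected in 10 cells with a highest level of 41.7 CPM, and took at most 9.21% of the counts of itself and Cox7a2. Cox6a2, Cox4i2 and Cox6b2 were detected in 1, 3 and 3 cells and took at most 5.92%, 4.67% and 3.85% of the counts of their pair. Cox8b, the muscle form of subunit VIII, had a count in 1 cell. Cox7b2, Cox8c and Ndufa4l2 had no count in any of the 73 cells, which allows a share of cells with a count of up to 4.11%. The other forms were high, from Cox7b at a median of 291 CPM to Cox8a at 1249 CPM.

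Assembly factors of complex IV ranged widely, also among those that handle copper. Cox14, an early partner of the mt-Co1 protein, had a median of 186 CPM, and Cox19, a copper-handling protein, 136 CPM. Cox7a2l, which links complexes into supercomplexes, had 117 CPM. Cox10 and Cox15, the enzymes that make heme A, had medians of 0 and 7.25 CPM and were detected in 22 and 35 cells. Cox17, the copper chaperone of the intermembrane space, was detected in 7 cells (median 0.635 CPM), though 72 cells had a count. Cox11 and Cox18 had medians of 18.8 and 16.9 CPM and were detected in 54 and 44 cells. Cox20 was detected in 1 cell and Cox16 in 51, and 84.8% and 54.2% of their windows are also held by another annotated gene, so their levels are uncertain. The same applies to Sdhaf1 (69%), Ndufaf2 (64.1%), Cox11 (43.2%), Atp5o (41.1%) and Atp5g2 (38.3%). For Cox17 and Ndufb2 the share is 3.94% and 5.52%, but it is taken over all transcripts, with principal ones of up to 3690 and 4371 bases. Those used for TPM have 444 and 455 bases, so the levels of both genes are uncertain too.

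Complex V makes ATP, and all 17 of its nuclear genes were detected in all 73 cells, with medians of 626 to 2791 TPM. In the catalytic head, Atp5b, the beta subunit, had 457, 1600 and 3264 CPM in the lowest, median and highest cell, the highest median of any nuclear member in CPM. Per length the head subunits ran from the alpha subunit Atp5a1 (626 TPM) to the epsilon subunit Atp5e (1568 TPM). The subunits with the highest level per length were Atp5md and Atp5mpl, small membrane proteins bound to the synthase, at 2791 and 2453 TPM. With the longest principal transcripts these were 397 and 1570 TPM, and Atp5j was the highest at 2022 TPM. Stalk subunits Atp5h, Atp5j and Atp5pb had 1873, 1896 and 715 TPM.

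The proton-carrying c ring is encoded by 3 genes for the same mature protein. Atp5g3 had 272, 501 and 905 CPM, Atp5g1 had 53.4, 390 and 1100 CPM, and Atp5g2 had 31.2, 183 and 340 CPM. How far Atp5g3 stood above Atp5g1 depends on the transcript lengths used. Other annotated genes also hold 542 of the 4881 windows of Atp5g1 and 622 of the 1622 of Atp5g2, but 0 of those of Atp5g3. The part of shared sequence in the order of the 3 genes was not tested. With the short Atp5g1 transcript of 596 bases, Atp5g3 held a median of 38.5% of the trio's TPM, Atp5g1 36.2% and Atp5g2 22.4%, and Atp5g3 was highest in 34 cells and Atp5g1 in 33. With the longest principal transcript of each of the 3 genes, 4715 bases for Atp5g1, 731 for Atp5g2 and 723 for Atp5g3, the shares were 67.7%, 7.75% and 24% in the same order, and Atp5g3 was highest in 72 cells. By counts alone Atp5g3 led in 56 cells. The deposited counts do not tell the transcripts apart.

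Over the 73 cells, the nuclear and the mitochondrial side of the chain did not move together. The rank correlation of the nuclear sum with the mitochondrial sum was -0.18 as CPM of all rows and -0.0089 as CPM of nuclear gene rows, a scale on which mitochondrial counts cannot lower the nuclear level. By complex the values on these scales were -0.032 and 0.17 for complex I, -0.14 and -0.0039 for complex III, -0.16 and -0.03 for complex IV, and -0.10 and 0.03 for complex V. None reached 0.3 in size, the mark used below, and at this size no order among the complexes is read. In the 49 cells without a rare marker of another cell type the value for the whole chain was -0.31 and that for complex III -0.34.

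Within each genome the complexes did move together. The mitochondrial sums of complexes I, III, IV and V correlated at 0.66 to 0.88, although I, III and IV rest mostly on a few high genes. The nuclear sums of complexes I, III, IV and V correlated at 0.43 to 0.66, with complexes I and IV at 0.66 and complexes I and III at 0.64. Complex II stood apart, at 0.13 to 0.26 with the others. Depth and the number of genes counted moved with these sums: the mitochondrial sum had a rho of -0.32 with total counts and 0.06 with genes counted, and the nuclear sum 0.19 and -0.45. Their part in the correlations between complexes was not tested.

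Single pairs of nuclear members correlated little. Over 4560 pairs of the 96 nuclear members with a mean of 10 CPM or more, the median rho was 0.05 (quartiles -0.05 and 0.15), and 5.57% of pairs reached 0.3, against a median of 0.0044 and 0.999% of pairs over all 8619 genes of that level. Complex V had the highest median, 0.11, and assembly factors stood at 0.0017. Cytosolic ribosomal protein genes, whose products also form 1 complex, had a median of 0.14, and mitochondrial ribosomal protein genes 0.0076. Pairs of a nuclear and a mitochondrial member had a median of -0.02. The 11 mitochondrial members above the same level had a median of 0.67, or 0.71 as CPM of nuclear rows.

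The mitochondrial genes themselves differed in their pairs. mt-Nd1, mt-Nd2, mt-Co1, mt-Nd4 and mt-Cytb, all high and on the plus strand, correlated at 0.79 to 0.88 with each other. mt-Co2, mt-Atp6 and mt-Co3, which share nearly all windows with the copies, correlated at 0.93 to 0.95 with each other and at 0.63 to 0.75 with the first group. Their correlation with mt-Atp8, which shares 0% of windows, was 0.81 to 0.91. With mt-Nd3 and mt-Nd4l, which also share nearly all windows, it was 0.36 to 0.38 and 0.42 to 0.46. mt-Nd5 and mt-Nd6, neighbours on opposite strands whose ends share 14 bases, correlated at 0.75 with each other and at 0.24 to 0.48 with mt-Co2, mt-Atp6 and mt-Co3. No source states that strand was used in counting, so reads of mt-Nd6, the protein gene on the minus strand, and reads of plus-strand RNA that runs across it cannot be told apart. A single cell, numbered 32, had the highest level of 8 of the 13 genes. In it mt-Co2, mt-Atp6 and mt-Co3 had 988, 1047 and 1130 CPM, against 337, 432 and 402 CPM in the next cell. Without it the trio still correlated at 0.93 to 0.95.

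**Figure D4:**
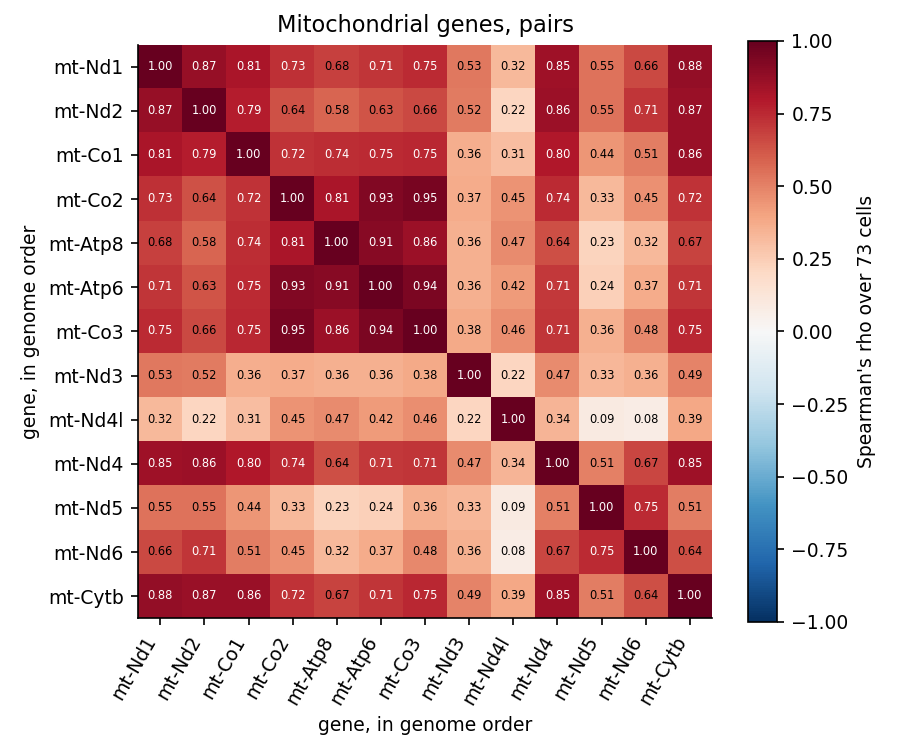
Spearman's rho over 73 cells between each pair of the 13 mitochondrial genes, in genome order on both axes, from CPM of all rows. mt-Co2, mt-Atp6 and mt-Co3 form the darkest block (0.93 to 0.95), while mt-Nd3 and mt-Nd4l are pale against most other genes.

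Member by member, 36 of 76 nuclear subunits and 0 of 20 assembly factors reached 0.3 with the nuclear sum, which itself consists mostly of subunit counts. Each member was correlated with the sum of its own genome's other members, as CPM of nuclear rows. Of 96 nuclear members, 36 reached 0.3, against 1.46% of 8619 genes, and 0 were at -0.3 or lower, against 1.53%. Of 11 mitochondrial members, 0 reached 0.3 with the nuclear sum, with values from -0.12 (mt-Nd5) to 0.21 (mt-Nd3). By complex, the nuclear members at 0.3 or higher were 10 of 17 in complex V, 9 of 19 in complex IV, 4 of 8 in complex III, 13 of 44 in complex I and 0 of 8 in complex II. The highest were Atp5e (0.60), Cox8a (0.56), Atp5k (0.55), Cox6b1 (0.55) and Ndufa1 (0.55), which are small subunits. The typical median level of the assembly factors was 17.9 CPM, against 325 CPM for the 76 subunits. The part of level in this difference was not tested. The large subunits Atp5a1 and Atp5b had -0.13 and -0.07, and low values were also found for Ndufb10 (-0.06) and the small subunit Ndufa3 (0.02). The part of subunit size was not tested.

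The mitochondrial sum of the other members was again taken as CPM of nuclear rows. With it, all 11 mitochondrial members reached 0.3, from mt-Nd3 (0.51) and mt-Nd5 (0.59) to mt-Nd1 and mt-Cytb (both 0.92). Of 96 nuclear members, 2 reached 0.3, against 2.78% of genes, and 3 were at -0.3 or lower, against 2.95%. The nuclear counts are near those shares of all genes. The positive ones were the accessory complex I subunits Ndufs6 (0.42) and Ndufa2 (0.31). The negative ones were the complex II anchor Sdhc (-0.34), the complex I subunit Ndufa9 (-0.33) and the Rieske protein Uqcrfs1 (-0.31).

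**Figure D5:**
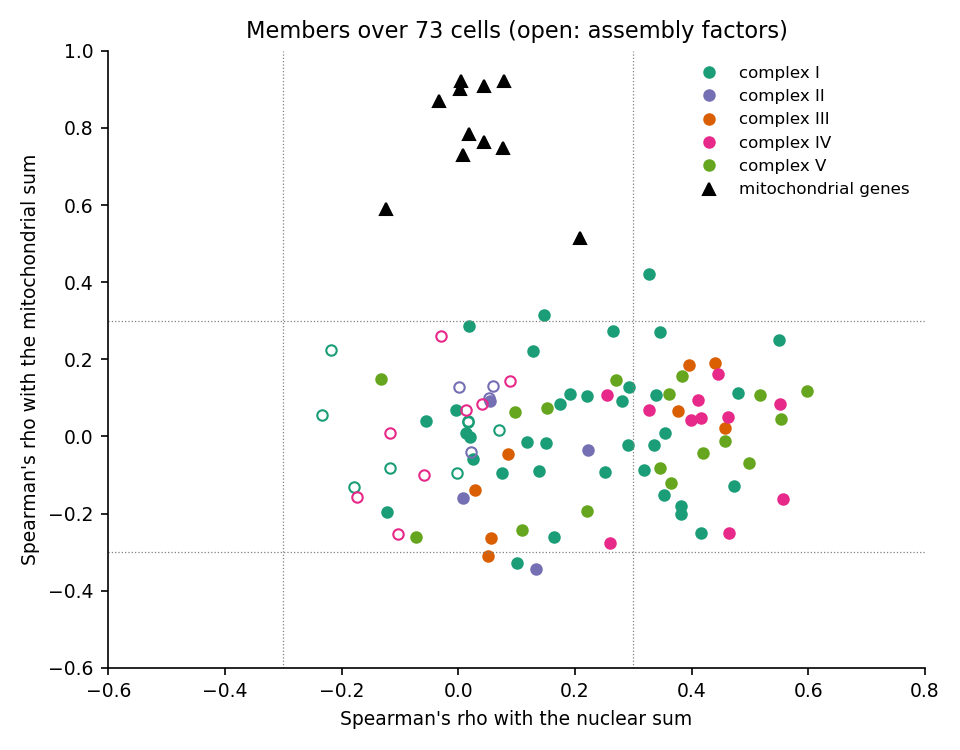
Spearman's rho over 73 cells of each member with the sum of the nuclear members (horizontal) and of the mitochondrial members (vertical), each without the member itself, as CPM of nuclear gene rows. Filled circles are nuclear subunits by complex, open circles assembly factors and triangles mitochondrial genes; dotted lines mark 0.3 in size, which 36 nuclear subunits pass to the right and 11 mitochondrial genes at the top.

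The outer hair cell gene Slc26a5, whose product prestin drives the motility of those cells, varied widely among these cells. Correlations with it are first given as CPM of nuclear rows. Of 11 mitochondrial members, mt-Nd5 (-0.45), mt-Nd6 (-0.34) and mt-Cytb (-0.30) were at -0.3 or lower, where 7.38% of genes were. The median of the 11 was -0.23, against -0.04 over all genes. As a sum, the mitochondrial genes had a rho of -0.32 with Slc26a5 and 0.35 with Atp2a3, an inner hair cell gene. From CPM of all rows these were -0.29 and 0.32. Total counts had -0.33 with the mitochondrial sum as CPM of nuclear rows. As CPM of all rows mt-Cytb had -0.27, and the medians by complex were -0.26 in complex I, -0.27 in complex III, -0.18 in complex IV and -0.14 in complex V. With ranks corrected for total counts these were -0.18, -0.19, -0.14 and -0.088. In the 49 cells without a rare marker of another cell type they were -0.27, -0.26, -0.095 and -0.053. Of 96 nuclear members, again as CPM of nuclear rows, 5 were at -0.3 or lower: Ndufa2 (-0.53), Ndufa6 (-0.49), Ndufv3 (-0.37), Uqcrq (-0.37) and Cox15 (-0.32). At 0.3 or higher stood 3, where 5.74% of genes were: Atp5c1, the gamma subunit of the ATP synthase (0.43), Ndufa5 (0.38) and Atp5mpl (0.32). Both nuclear counts were below the shares of all genes, and the nuclear median was 0.01.

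Few genes around the chain reached 0.3 in size with either sum, as was true of all genes. Correlations here are from CPM of nuclear rows unless stated otherwise. Of 12 compared citric acid cycle genes, 9 electron carriers and related enzymes, 21 assembly factors outside the prefixes, 12 genes of biogenesis and mitochondrial DNA transcription, 8 of mitochondrial RNA processing and 10 carriers and uncoupling genes, 0 reached 0.3 with the nuclear sum (1.46% of all genes) and 0 were at -0.3 or lower (1.53%). With the mitochondrial sum, 0 of these reached 0.3 (2.78%), and 2 were at -0.3 or lower (2.95%), so these counts do not set the lists apart from other genes. These were Suclg1, a subunit of succinyl-CoA ligase (-0.38), and Higd1a, a protein that binds the chain under low oxygen (-0.32). Among regulators, Ppargc1a, the coactivator of mitochondrial biogenesis, was detected in 0 cells and Tfam, which packs and transcribes mitochondrial DNA, in 17. Carriers of adenine nucleotides and phosphate were abundant, with medians of 1148 CPM for Slc25a4, 795 for Slc25a5 and 598 for Slc25a3. As sums of many genes, cytosolic ribosomal protein genes had a rho of 0.40 with the nuclear sum and mitochondrial ribosomal protein genes 0.49. Gene by gene, 9 of 76 and 3 of 76 reached 0.3, with medians of 0.17 and 0.054, and the median of the citric acid cycle genes was 0.051. Mitochondrial ribosomal RNA followed the mitochondrial sum at 0.65 and had -0.09 with the nuclear sum. As CPM of all rows these were 0.61 and -0.29.

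Beyond these lists, correlations were also taken from CPM of nuclear rows. The gene most like the nuclear sum was Chchd10, a protein of the mitochondrial intermembrane space, with a rho of 0.57 over 73 cells. Next came Fth1, the heavy chain of ferritin (0.53), Tpt1 (0.51), the ribosomal protein gene Rpl41 (0.49), Prdx2, a peroxidase (0.48), and the calcium buffer Pvalb (0.45), with Rpl36, Polr2g, Ubl5 and Pomp at 0.43 to 0.44. The lowest were Lzic (-0.52), Zfp113 (-0.51), Taok1 (-0.46) and the immediate early gene Fos (-0.44), which ranged from 0 to 2560 CPM. Atg16l2, Cbll1, Hecw1, Sipa1l3, Slc25a40 and Pcm1 followed at -0.42 to -0.39. Several of these were counted in a minority of cells, such as Zfp113, detected in 21 cells, and Slc25a40, a mitochondrial carrier, in 18. For the mitochondrial sum the highest were Rn7s2, a signal recognition particle RNA (0.66, median 30.0 CPM), Eps8l2 (0.52) and Myo15 (0.49), proteins of the stereocilia, and Tmem14a (0.49). Pgm2l1 (0.49) and Tomm7, a part of the import pore of the outer membrane (0.48), came next, then Cgn, Ap3b2, Rn7sk and Id3 at 0.46 to 0.48. Tmem14a and Id3 were detected in 13 and 24 cells. At the other end stood Skp1a (-0.61), the histone genes H2bu2 (-0.60) and H3f3b (-0.50), Ypel3 (-0.55) and the stress gene Ppp1r15a (-0.48), then Trak2, which links mitochondria to motor proteins, Cript, Irf2bp2, Cldn9 and Card19 at -0.48 to -0.45.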

How the data were processed

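Cochleae were digested with papain, protease and dispase and single cells were picked; the Smart-Seq HT kit gave full-length cDNA, which was tagmented, per the labels' protocols. The protocol names no molecular identifiers. HISAT2 2.2.1, StringTie 2.2.1, featureCounts 2.0.1 and build mm10 are named in the submitters' processing notes, without role or settings, and no source used here states strand or annotation. The values are whole-number counts of reads, deposited by the authors as a single table. The reporter row WPRE (0.0161% of counts) was left out of totals, and no libraries were identical.

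Counts were scaled to CPM over all gene rows or over rows not starting with mt-. TPM used the shortest best-supported principal coding transcript of GENCODE vM21 (21490 rows, 92.5% of counts), and 50-base windows were taken from its transcripts. All 119 members had a transcript. Spearman correlations covered the 8619 genes whose mean reached 10 CPM, among them 96 nuclear and 11 mitochondrial members, and values of 0.3 or more in size were counted. With 1 sample no test was run. The limit for 0 cells is 3 of 73 and covers counting error only.

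Members and lists were chosen with earlier results of these data known. Named genes are the members, the listed pathway genes, and 10 genes at either end of the correlation with each sum. The list names Fastkd4 and Mrpp3 are not symbols of the table, whose rows Tbrg4 and Prorp stand for these genes. The correlation step was checked on simulated counts. Python 3.11.15 was used with numpy 2.4.6, pandas 2.3.3, scipy 1.17.1, Biopython 1.88 and, for figures, matplotlib 3.10.9.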

Additional observations from a re-analysis of the deposited data

Results flagged for a closer look

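Outside the members, the 7 rows on chromosome 1 that copy mitochondrial genes had counts in these cells, with a summed median of 799 CPM (122 to 2990). They were looked at because they are not respiratory chain rows by the naming rule and yet carry sequence that is identical, or nearly so, to mitochondrial genes. There is no control sample, and the level is far above 3 counts. Whether the reads came from mitochondrial RNA or from chromosome 1 cannot be told apart for identical windows.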

How the results depend on the processing

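Of 135 values under alternatives, 116 stayed within the tolerance of the value reported and 19 moved. A change of sign was counted only for reported correlations of 0.3 or more in size. Only the median pair of mitochondrial genes (0.67) was that large, and it kept its sign. Smaller values did change sign on nuclear rows, such as complex I from -0.032 to 0.17 and complex V from -0.098 to 0.032. The tolerance was 1 SD over cells for a share, 1.5 times for a count, and the sampling error of a rank correlation of 73 points on Fisher's scale. Per length, the median share was 6.03% of TPM for mitochondrial and 7.82% for nuclear members, and 6.48% and 7.45% with the longest transcripts, which turns the order of 3.84% and 3.12% of counts round. Both orders rest on a mitochondrial sum that includes the genes with uncertain counts. The correlation of the nuclear with the mitochondrial sum moved to the values on nuclear rows given above for the whole chain (-0.0089), and for complexes I (0.17), III (-0.0039), IV (-0.025) and V (0.032). With ribosomal protein rows also out of the denominator, these were -0.0054, 0.17, -0.0045, -0.015 and 0.029. Without 24 cells with a rare marker of another cell type, the whole chain had -0.31 and complex III -0.34. As a mean of log2 levels, complex I had -0.21 and complex III -0.35. The median pair of mitochondrial genes without the 5 genes of shared windows was 0.75. The cause was not tested in any of these. Detection counts stayed at 10 to 13 mitochondrial and 83 to 90 nuclear members under 1 and 50 CPM, thinning to the shallowest library and keeping Ndufb1-ps. Leaving out cell 17 or cell 32, adding the copies' counts, leaving out the 5 genes of shared windows, the longest transcripts and keeping Ndufb1-ps were chosen after seeing the data. Keeping rows named -ps that are annotated as protein coding gave no value, since there are none; Ndufb1-ps is annotated as noncoding. No paired analysis was possible because there is 1 group.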
